A study of Mus musculus with 13 samples.

Results

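The peaks described here lie around Dbx1 and Dbx2, a pair of mouse genes that mark progenitors of the intermediate neural tube. Members were all peaks of 4 deposited lists (Nkx2.2, Nkx6.1, Olig2 and Gli3; mouse build mm9) with their centre on chromosome 7 between 56700000 and 57100000, a window of 400 kb named for Dbx1, or on chromosome 15 between 95300000 and 95650000, a window of 350 kb named for Dbx2. They numbered 27 of 23280 peaks. The Dbx1 window held 20 of them and the Dbx2 window 7. By factor, 4 of 5551 Nkx2.2 peaks, 6 of 4094 Nkx6.1 peaks, 11 of 11747 Olig2 peaks and 6 of 1888 Gli3 peaks were members. Each peak was 300 bp wide, and none carried a score.

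Dbx1 and Dbx2 encode homeodomain transcription factors that help to set the identity of interneurons born at intermediate levels of the spinal cord. In the ventral neural tube their expression stops where more ventral progenitor domains begin. Sonic hedgehog from the floor plate induces ventral homeodomain and bHLH factors, among them Nkx6.1, Olig2 and Nkx2.2, and Nkx6 proteins are known to keep Dbx genes off in ventral progenitors. Gli3 is a zinc finger factor of the hedgehog pathway, which in cells without the signal is processed to a repressor.

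The libraries were ChIP-seq (chromatin immunoprecipitation with sequencing) of neural progenitors that had been derived from mouse embryonic stem cells by 2 days of suspension culture and 3 days with 500 nM all-trans retinoic acid. For Nkx2.2, Nkx6.1 and Olig2 the cultures also received 160 to 800 nM of a Smoothened agonist, which turns hedgehog signalling on, and the labels call them ventral. Replicate 1 of Nkx6.1 and of Olig2 came from the YFP3.1 line. Replicate 1 of Nkx2.2 and replicate 2 of the 3 ventral factors came from its derivative Rosa26-Gli1FLAG. The strain background of both lines is a mixture of Swiss Webster, C57BL6/J and 129 Sv. Gli3 had 1 ChIP library, made with an anti-FLAG antibody from V6.5 cells (C57BL/6 X 129/sv) that carry a 3xFLAG-Avi tag at the Gli3 initiation codon, grown without the agonist and called dorsal. Factor, line and culture therefore cannot be told apart wherever Gli3 is set beside another list. No expression was measured in these files, so the labelled cell type could not be checked against markers, and whether Dbx1 or Dbx2 was transcribed in these cultures is not known from them.

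Coverage within 2000 bp of each peak centre was given for the 3 ventral lists, in 3 blocks per table whose headers name no library. Values below are the mean within 250 bp of the centre, called centre coverage, in the authors' units. The blocks are not taken as replicates, so no error between cultures can be given and no test was made. Each peak is placed instead by the percent of its own list with lower centre coverage in the same block. Where an Nkx6.1 and an Olig2 peak lay near each other at a multiple of 25 bp (86 pairs), block 3 of the 2 tables held equal values at 13060 of 13136 positions covered by both (99.4%), against at most 20.5% for any other pair of blocks from different tables. The 76 unequal positions were all in the leftmost 200 bp of the shared stretch, and without it 12448 of 12448 were equal, a limit chosen after the mismatches were seen. Block 3 of these tables is therefore counted as 1 set of values and not as separate evidence. The labels list 1 sample with both tables, the shared replicate 2 input. The names under which the tables were deposited carry 3 codes each, and the third code is the same for the Nkx6.1 and Olig2 tables and different for Nkx2.2. No label explains the codes, so no block was assigned to a sample.

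The genes' promoters are shown because they are the regulatory sequence at hand for the 2 genes. They are from RefSeq on GRCm38.p6, run from 250 bases before to 50 after the gene start on the minus strand of chromosomes 7 and 15, and were not placed on mm9, so whether a peak covers them was not determined. Capitals mark matches, on either strand, to CANNTG (the E-box that bHLH factors such as Olig2 bind), TAATTA (a homeodomain core), AAGTG (an NK2-type core) or TGGGTGGTC (Gli).
Dbx1: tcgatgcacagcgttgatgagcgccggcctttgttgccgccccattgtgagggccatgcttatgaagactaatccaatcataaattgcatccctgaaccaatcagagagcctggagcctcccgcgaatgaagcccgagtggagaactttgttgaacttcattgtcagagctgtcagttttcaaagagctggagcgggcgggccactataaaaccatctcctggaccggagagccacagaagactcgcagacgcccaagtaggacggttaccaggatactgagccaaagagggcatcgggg
Dbx2: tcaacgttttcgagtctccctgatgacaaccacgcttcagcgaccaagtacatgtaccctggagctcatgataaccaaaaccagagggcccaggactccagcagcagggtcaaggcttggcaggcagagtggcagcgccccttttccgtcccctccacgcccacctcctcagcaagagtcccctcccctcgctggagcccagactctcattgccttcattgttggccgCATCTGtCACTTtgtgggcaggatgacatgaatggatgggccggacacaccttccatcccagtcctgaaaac
The Dbx2 promoter sequence of 300 bases held 1 E-box at bases 229 to 234 and 1 NK2-type match on the opposite strand at bases 236 to 240, with 1 base between them. In the Dbx1 sequence none of the 4 motifs was found, which says only that these letters are not in these 300 bases. Of 32851 RefSeq promoters of this length, 72.3% held CANNTG, 46.4% AAGTG, 5.29% TAATTA and 0.253% TGGGTGGTC. GC content was 54.0% for Dbx1 and 57.7% for Dbx2, where the median promoter had 52.7%.

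The Dbx1 window was rich in peaks of all 4 factors. It held 4 Nkx2.2, 5 Nkx6.1, 9 Olig2 and 2 Gli3 peaks. When the genome was cut into 6601 windows of the same length, 0.697% held at least 20 peaks of the 4 lists together, and the mean was 3.53. At least 5 Nkx6.1 peaks lay in 1.03% of these windows, at least 9 Olig2 peaks in 1.55%, at least 4 Nkx2.2 peaks in 4.48% and at least 2 Gli3 peaks in 6.15%. The Dbx1 peaks joined into 17 regions, with a median of 10.8 kb from the centre of a region to the next. In the annotation at hand, which is of another build, the nearest genes to Dbx1 are Nav2 on one side and Htatip2 and Prmt3 on the other, so a peak in the window need not belong to Dbx1.

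**Figure D1:**
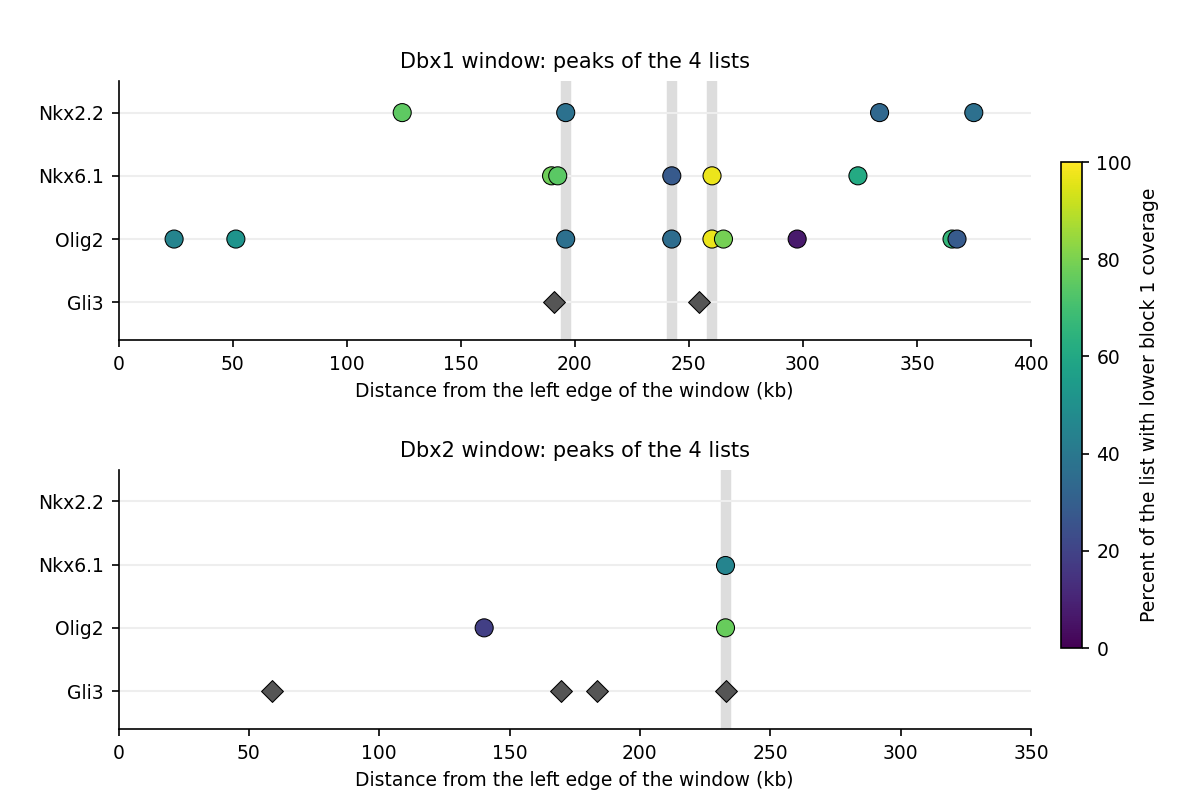
Peaks of each list by distance from the left edge of the window (kb), for the Dbx1 window (upper) and the Dbx2 window (lower). Circles are coloured by the percent of the list with lower block 1 coverage, Gli3 peaks (diamonds) have no coverage table, and grey bars mark regions where peaks of 2 or more lists share at least 1 bp: 3 in the Dbx1 window and 1 in the Dbx2 window.

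The closest group in the Dbx1 window brought 5 peaks of all 4 lists within 6506 bp, from 56889695 to 56896200 on chromosome 7, without any region that joined more than 2 of them. From left to right it held an Nkx6.1 peak (56889695 to 56889994), a Gli3 peak (56890627 to 56890926), another Nkx6.1 peak (56892398 to 56892697) and an Nkx2.2 peak (56895901 to 56896200) on top of an Olig2 peak (56895887 to 56896186). The first Gli3 peak lay 932 bp from the centre of the first Nkx6.1 peak and 1771 bp from that of the second. Of the 1888 Gli3 peaks, 6.30% had a peak of each ventral list with its centre within 5274 bp, the widest distance needed here. This distance was chosen after the values were seen.

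The first Nkx6.1 peak of the group had a centre coverage of 16.0, 17.6 and 0.784 units in blocks 1 to 3, with 77.9% and 94.0% of the Nkx6.1 list lower in blocks 1 and 2. The second had 14.9, 10.9 and 0.168 units, with 74.6% and 83.1% of the list lower. Both thus sat high among Nkx6.1 peaks by centre coverage in these blocks, and neither rose in block 3. By block 1 centre over flank they were nearer the middle, with 59.7% and 54.2% of the list lower. At the centre of the Gli3 peak between them, Nkx6.1 coverage (mean within 50 bp) was 2.09 units in block 1 and 2.44 in block 2, read from the first peak's row. It was 31.9 and 31.1 units at the centre of that Nkx6.1 peak itself. Nkx6.1 coverage at the Gli3 centre was thus far below that at the Nkx6.1 centre, but above the mean of that profile's flanks (the outermost 250 bp on each side), which was 1.02 and 0.783 units. The flank on the side of the Gli3 peak alone held 1.04 to 2.61 units in block 1, a range that includes 2.09. In block 2 that flank held 0.465 to 0.931 units, below 2.44.

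**Figure D2:**
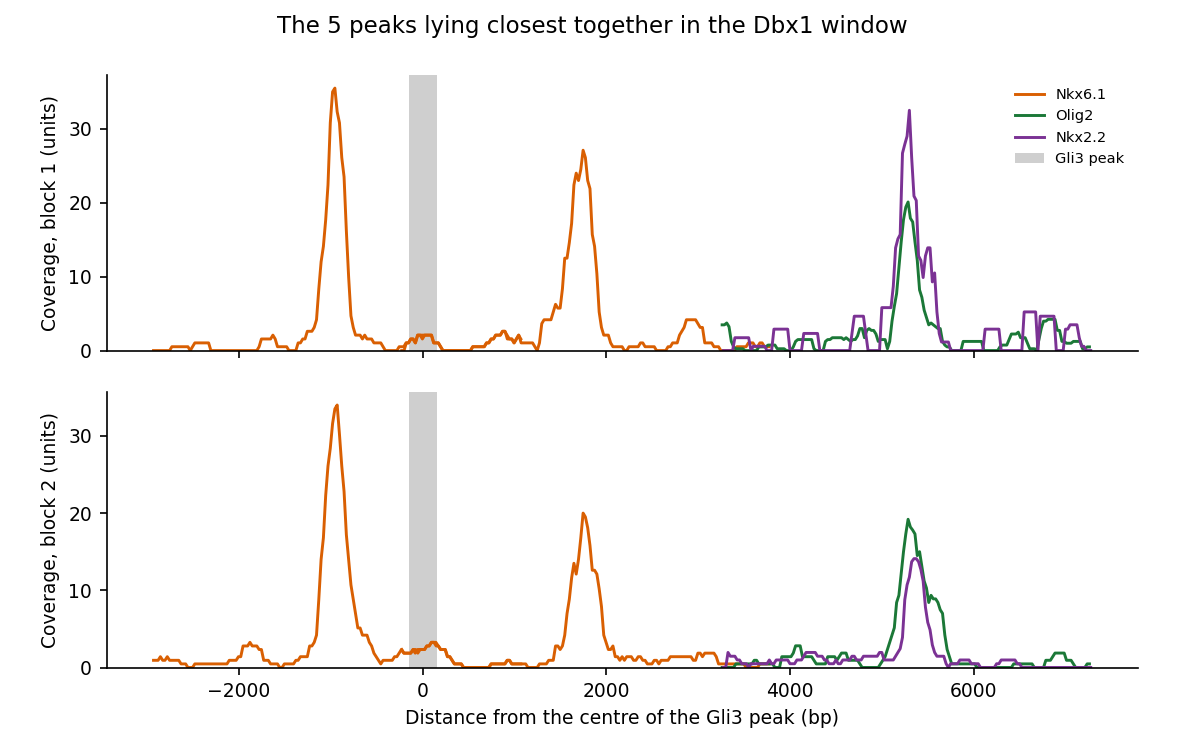
Coverage in block 1 (upper) and block 2 (lower) around 5 peaks of the Dbx1 window, against the distance (bp) from the centre of the Gli3 peak, whose 300 bp are shaded. The Nkx6.1 summits lie on either side of the Gli3 peak, the Nkx6.1 lines are at a low 2.09 and 2.44 units at its centre, and the Nkx2.2 and Olig2 lines rise together about 5 kb to the right. The units of the tables are not on a common scale.

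On the right of the group, the Nkx2.2 and Olig2 peaks shared 286 bp, with their centres 14 bp apart. The Nkx2.2 peak had 16.0, 6.85 and 0.699 units in blocks 1 to 3, with 37.2% and 71.1% of the Nkx2.2 list lower in blocks 1 and 2. The Olig2 peak had 9.34, 10.7 and 0.952 units, with 36.5% and 60.8% of the Olig2 list lower. Each was below its list's median in block 1 and above it in block 2. This was the only Nkx2.2 member of 4 that met another list. Over the whole lists, 24.3% of Nkx2.2 peaks met an Olig2 peak, 16.1% an Nkx6.1 peak, 7.91% a Gli3 peak and 35.3% a peak of any other list.

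The region shared by Nkx6.1 and Olig2 at 56960007 to 56960349 held the window's highest Olig2 coverage in blocks 1 and 2 and its highest Nkx6.1 coverage in block 1. In block 2 the Nkx6.1 peak at 56889695 was higher. For the Nkx6.1 peak (56960050 to 56960349) centre coverage reached 38.2, 14.2 and 0.523 units across the 3 blocks, and 97.0% and 89.6% of the Nkx6.1 list were lower in blocks 1 and 2. The Olig2 peak (56960007 to 56960306) had 71.8, 42.5 and 0.542 units, and 97.2% and 95.9% of the Olig2 list were lower. The peaks shared 257 bp and their centres were 43 bp apart, near the median of 46 bp for the 1610 overlapping pairs of these lists. Both members of a pair were in the top 5% of their list by block 1 in 2.55% of those pairs. Across the 1610 pairs the block 1 ranks of Nkx6.1 and Olig2 had a Spearman rho of 0.168 as a description across peaks, with no test.

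Around that region lay a Gli3 peak (56954460 to 56954759) 5547 bp to the left of the Olig2 centre, and a further Olig2 peak (56965057 to 56965356) 5050 bp to its right. This Olig2 peak had 21.8, 27.4 and 0.896 units, with 79.2% and 90.3% of the list lower in blocks 1 and 2, and met no other list. Between this Olig2 peak and the Gli3 peak, 10597 bp apart by their centres, lay the window's strongest Nkx6.1 peak by block 1 and its highest Olig2 peak. The further Olig2 peak, the next highest in blocks 1 and 2, bounds that stretch by choice. Neither Gli3 peak of the Dbx1 window shared a base with a ventral peak.

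The other region of Nkx6.1 with Olig2, at 56942375 to 56942708, was low in both tables. The Nkx6.1 peak (56942409 to 56942708) had 8.00, 2.42 and 0.336 units, with 27.8% and 16.8% of its list lower in blocks 1 and 2. The Olig2 peak (56942375 to 56942674) had 9.18, 7.91 and 0.336 units, with 35.3% and 46.9% of its list lower. Their centres were 34 bp apart. Among the regions of Nkx6.1 with Olig2 in the Dbx1 window, coverage was thus near the top of the lists at one site and below the median at the other. The region shared by Nkx2.2 and Olig2 was below the medians in block 1 and above them in block 2.

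**Figure D3:**
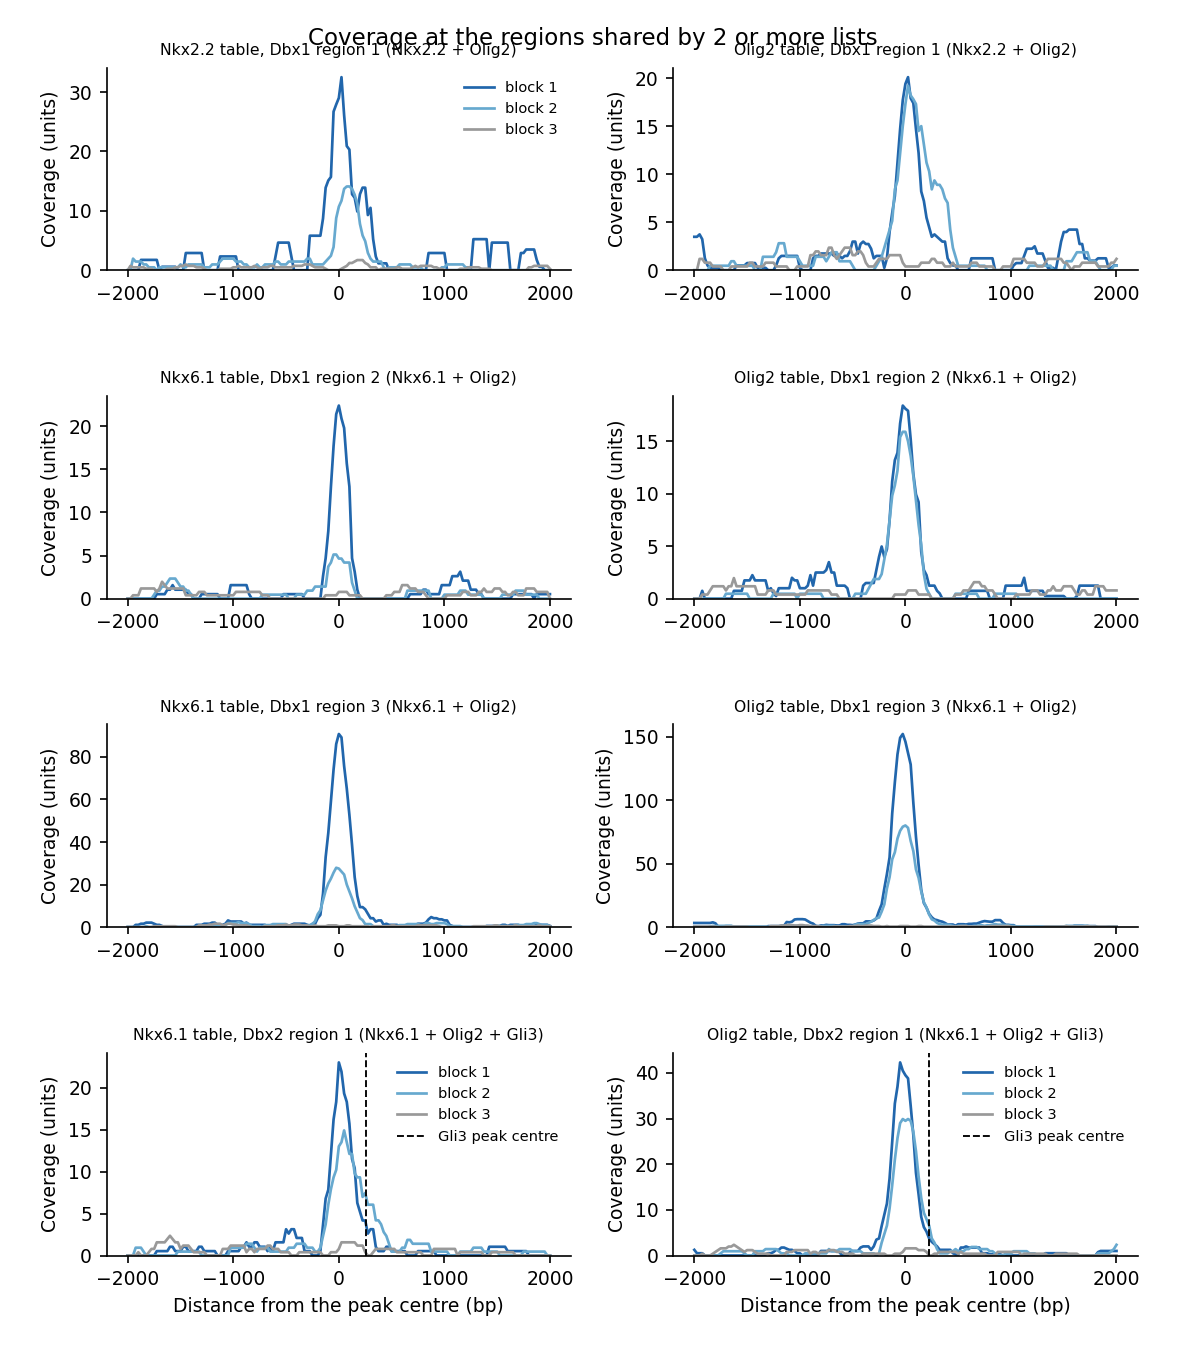
Coverage (authors' units) against distance from the peak centre (bp) at the 4 regions shared by 2 or more lists, with the 2 ventral tables of each region side by side and 1 line per block; each panel has its own vertical axis. In blocks 1 and 2 every panel has its summit within 75 bp of the centre, and Dbx1 region 3 has the highest Olig2 centre coverage (71.8 units in block 1). In the Dbx2 region the Gli3 centre (dashed) lies to the right of the summits, on the falling side.

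Away from these sites, 1 Nkx6.1, 3 Nkx2.2 and 5 Olig2 peaks of the Dbx1 window met no other list. The Nkx6.1 peak at 57024000 to 57024299 had 11.9, 4.17 and 0.710 units, above the list's median in block 1 (60.6% lower) and below it in block 2 (38.8%). Of the Nkx2.2 peaks, that at 56824224 to 56824523 was the highest, with 26.1, 9.33 and 0.850 units and 75.1% and 82.1% of the list lower in blocks 1 and 2. It stood alone, 65471 bp from the nearest Nkx6.1 centre and 71663 bp from the nearest Olig2 centre.

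The Nkx2.2 peak at 57074793 to 57075092 had 15.9, 3.41 and 0.326 units, with 36.6% and 34.3% of the list lower in blocks 1 and 2. The Nkx2.2 peak at 57033492 to 57033791 stood apart between blocks. Its coverage of 15.3 units in block 1 stood against 1.35 in block 2 and 1.57 in block 3, with 33.3%, 4.68% and 65.2% of the list lower, so it was the only ventral member with more coverage in block 3 than in block 2. Its ratio of block 1 to block 2 was 11.3, above 95.7% of the Nkx2.2 list, whose median ratio was 4.16. Block 2 there reached only 5 of its smallest steps, with a centre over flank of 1.60, so the ratio rests on a block 2 value near the floor.

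The remaining 5 Olig2 peaks of the Dbx1 window were of middle to low coverage. On the left, those at 56724228 to 56724527 and 56751301 to 56751600 had 10.5 and 11.6 units in block 1 and 5.19 and 6.30 in block 2. On the right, a pair 2190 bp apart at 57065252 to 57065551 and 57067442 to 57067741 had 15.3 and 8.36 units in block 1 and 5.99 and 2.92 in block 2. The lowest Olig2 member in block 1 was at 56997361 to 56997660, with 6.06 units there and 5.19 in block 2, and 6.97% and 28.1% of the list lower. In block 2 these 5 peaks were below the Olig2 median of 8.44 units.

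The Dbx2 window had a different make-up, with 4 Gli3 peaks, 2 Olig2 peaks, 1 Nkx6.1 peak and 0 Nkx2.2 peaks. Of 7543 windows of its length, 0.782% held at least 4 Gli3 peaks, while 34.3% held at least 1 Nkx6.1 peak, 37.9% at least 2 Olig2 peaks and 59.4% no Nkx2.2 peak. The absence of Nkx2.2 is thus common among windows of this length. The 4 lists combined reached at least 7 peaks in 14.3% of windows. In the annotation at hand Dbx2 lies between Nell2 and Ano6, so these peaks too need not belong to Dbx2.

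Of the 5 regions in the Dbx2 window, 1 joined 3 factors, at 95532655 to 95533212 on chromosome 15. Nkx6.1 centre coverage there (peak 95532655 to 95532954) was 9.76, 7.82 and 0.803 units over the 3 blocks, with 45.1% and 69.9% of the Nkx6.1 list lower in blocks 1 and 2. Its Olig2 peak (95532687 to 95532986) had 20.1, 16.3 and 0.728 units, with 76.9% and 77.1% of the Olig2 list lower. The centres of these peaks were 32 bp apart. Among all 19087 regions, 3.56% held 3 or more lists, and 0.231% (44 regions) held Nkx6.1, Olig2 and Gli3 without Nkx2.2.

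The Gli3 peak of that region (95532913 to 95533212) met the others by their edges. It shared 42 bp with the Nkx6.1 peak and 74 bp with the Olig2 peak, with centres 258 and 226 bp apart. At the Gli3 centre, Nkx6.1 coverage (mean within 50 bp) was 3.52 units in block 1 and 6.63 in block 2, against 19.7 and 12.2 at the Nkx6.1 centre. Olig2 coverage was 3.60 and 5.26 units there, against 38.8 and 29.6 at the Olig2 centre. The Gli3 centre therefore lay on the falling side of both profiles and not on their summit, with less of a drop in block 2 than in block 1.

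The other Gli3 peaks of the Dbx2 window met no ventral peak, at 95358706 to 95359005, 95469529 to 95469828 and 95483448 to 95483747. Their nearest Olig2 centres were 81410, 29413 and 43332 bp away. Over the windows, 1 of 6 Gli3 members met a ventral list, where 36.3% of all Gli3 peaks met any of them, 22.5% met Nkx2.2, 20.1% Olig2 and 7.36% Nkx6.1. On chromosome 15 the next Gli3 peaks lay 4391 kb to the left of the window and 822 kb to its right, and on chromosome 7 they lay 449 kb to the left and 10049 kb to the right. The other Olig2 peak of the Dbx2 window (95440116 to 95440415) was weak, with 7.33, 3.76 and 0.766 units and 18.6% and 17.0% of the list lower in blocks 1 and 2.

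Peaks just beyond the windows bear on these counts. An Nkx2.2 peak at 95657997 to 95658296 lay 8.15 kb to the right of the Dbx2 window and overlapped an Olig2 peak at 95658065 to 95658364. Coverage of that Olig2 peak was 47.1 units in block 1 and 55.3 in block 2, with 93.9% and 97.6% of the list lower, more than either Olig2 peak inside the window. The Nkx2.2 peak had 18.1 and 7.73 units, with 48.3% and 75.4% of its list lower. With 50 kb more on each side the Dbx2 window would hold 2 Nkx2.2 peaks in place of 0. Next to the Dbx1 window the nearest outside peaks were an Nkx6.1 peak 21.1 kb to the right, with 7.35 units in block 1 and 0.997 in block 2, and an Nkx2.2 peak 45.1 kb to the right, with 26.5 and 6.78 units. The members nearest to the edges of the Dbx1 window were an Olig2 peak 24.4 kb inside the left edge and an Nkx2.2 peak 25.1 kb inside the right edge, both described above.

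Overlap of the members with other lists is set beside that of each whole list, and the counts are too few to tell the members from their lists. Of the Nkx6.1 members, 3 of 6 met an Olig2 peak and 1 of 6 a Gli3 peak, against 38.6% and 3.47% of the Nkx6.1 list, and none met Nkx2.2, against 21.5%. Of the Olig2 members, 3 of 11 met Nkx6.1, 1 of 11 met Nkx2.2 and 1 of 11 met Gli3, against 13.5%, 11.2% and 3.26% of the Olig2 list. With any other list, 3 of 6 Nkx6.1 and 4 of 11 Olig2 members overlapped, against 47.1% and 21.7% of their lists. Of the 22 regions in the windows 4 held 2 or more lists, against 16.2% of all regions. Over all 4 lists, 9 of 27 members met another list, against 30.6% of all peaks.

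Centre coverage is given by table, since the tables need not share a scale. For Nkx6.1 the members ran from 8.00 to 38.2 units with a median of 13.4 in block 1, where the list's median was 10.4. For Olig2 they ran from 6.06 to 71.8 units with a median of 10.5, where the list's was 11.3. For Nkx2.2 they ran from 15.3 to 26.1 units with a median of 15.9, where the list's was 18.4. Above the median of their list in block 1 were 4 of 6 Nkx6.1, 5 of 11 Olig2 and 1 of 4 Nkx2.2 members. In block 2 the members' medians were 9.37 units for Nkx6.1, 6.30 for Olig2 and 5.13 for Nkx2.2. The lists' block 2 medians were 5.19, 8.44 and 4.43. By block 2, 4 of 6 Nkx6.1, 4 of 11 Olig2 and 2 of 4 Nkx2.2 members were above the median of their list. Olig2 and Nkx6.1 members thus lay both low and high in their lists, and a few sites stood high. The 4 Nkx2.2 members ran from 33.3% to 75.1% of their list lower in block 1 and from 4.68% to 82.1% in block 2.

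In block 1 centre coverage was at least 3 times that of the flank for 21 of 21 ventral members, with 1 unit added to each, as it was for 96.7% of the 21392 peaks of the 3 ventral lists. In block 2 this held for 17 of 21, against 75.7% of all these peaks, and 20 of 21 reached 2 times, against 90.4%. In block 3 none reached 2 times, against 7.73%, and the highest member was at 1.63. Nkx2.2 members had a median ratio of 14.6 in block 1 (list 13.8), Nkx6.1 members one of 8.13 (list 7.45) and Olig2 members one of 6.97 (list 8.26). In block 1 the members' medians of centre over flank were thus above those of the lists for Nkx2.2 and Nkx6.1 and below for Olig2. In block 2 they were above, at 4.93 for Nkx2.2 (list 3.66), 6.05 for Nkx6.1 (list 4.19) and 6.99 for Olig2 (list 6.31). With so few members, no contrast between the blocks is drawn from these medians. Centre coverage fell along the order of each list, with a Spearman rho from -0.928 to -0.827 in block 1 and from -0.634 to -0.525 in block 2. A rise at the centre in these blocks is thus partly built into the lists and is given only as a description. The highest point of the profile was within 50 bp of the centre for 21 of 21 members in block 1, against 87.8% of all these peaks, and for 19 of 21 in block 2, against 69.8%. In block 3 it was more than 500 bp away for 16 of 21, against 58.1%. Block 1 thus had a summit in the middle at the member peaks, as did block 2 at most of them. In block 2 the Nkx2.2 peak at 57033492 rose to only 2.44 units, with a centre over flank of 1.60. Most members had no central summit in block 3, whose highest point was at most 13 of its smallest steps. The Nkx2.2 peak at 57033492 and the Olig2 peak at 56965057 had their highest block 3 point 50 bp from the centre.

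**Figure D4:**
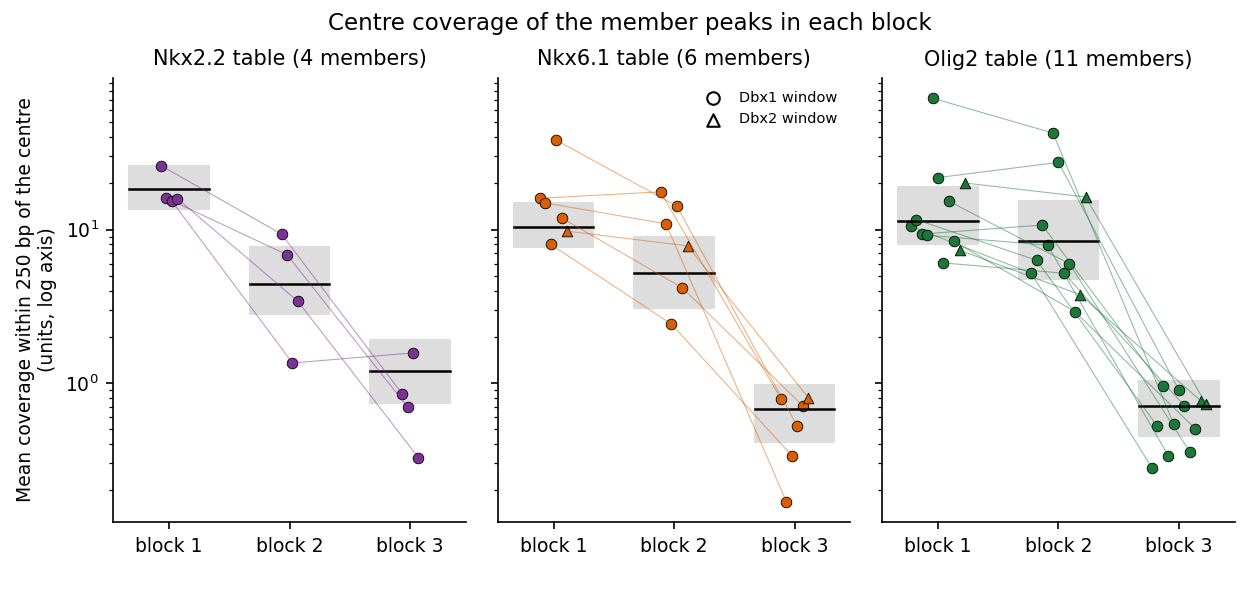
Mean coverage within 250 bp of the centre (authors' units, log axis) for the 21 ventral members in each block, with 1 line per peak; circles are Dbx1 and triangles Dbx2 members, black bars the median and grey boxes the range from the 25th to the 75th percentile of the whole list. Most members lie within or near the grey boxes, the Nkx6.1 and Olig2 peaks at 38.2 and 71.8 units stand highest in block 1 of their tables, and block 3 is low for every member.

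Taking each peak against its list's median, 15 of 21 members were on the same side in blocks 1 and 2, against 75.2% of the peaks of the 3 ventral lists. All 4 ventral peaks of the close group in the Dbx1 window had a low ratio of block 1 to block 2 for their list. It was 0.908 and 1.36 for the Nkx6.1 peaks, with 5.96% and 21.1% of the list lower, 0.874 for Olig2 (15.4% lower) and 2.33 for Nkx2.2 (12.6% lower). Low ratios also lay outside the close group. They were at the Olig2 peak at 56965057 (11.3% lower), the Dbx2 Nkx6.1 peak (16.8%) and the Nkx2.2 peak at 56824224 (21.2%). The remaining ventral members had from 32.6% to 95.7% of their list lower. Block 2 exceeded block 1 at 3 of 21 members, namely the first Nkx6.1 peak and the Olig2 peak of this group and the Olig2 peak at 56965057, where 8.48% of Nkx6.1, 22.7% of Olig2 and 0.558% of Nkx2.2 peaks did so. This group was singled out after its values were seen, and whether the blocks differ by library, line or culture was not tested.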

How the data were processed

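The members and lists were chosen with earlier results of these data known. The authors deposited 4 peak lists (other values: start and end in bp, without score) and 3 coverage tables (signal in steps of 25 bp to 2000 bp on each side of peak centres, in 3 blocks). Bowtie2 2.2.4, HOMER and the build mm9 are named in the submitters' processing notes. The sources used here do not give their settings, the scaling of coverage or whether replicates were pooled for peak calling. The labels describe 13 samples, 7 ChIP and 6 input. The labels list the peak files under replicate 1 and Gli3 samples and the coverage tables under replicate 2 ChIP and input samples. Depth per library is unknown. Coverage values were whole multiples of a smallest step in each block (100% within 0.02 of a step).

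Row i of a table was matched to line i of its list. Profiles of peaks within 1000 bp of each other then correlated with a median r of 0.970 to 0.998 over tables and blocks, against -0.0814 to 0.138 with rows shuffled. Positions are 1-based. Overlap means at least 1 bp. Coverage was compared within a table only. The functions were tested on simulated peaks and profiles. The gene table is for GRCm38.p6, so no gene coordinates were used. Named were all members and all regions of 2 or more lists, with full values for shared regions and the highest peaks first. Python 3.11.15, numpy 2.4.6, pandas 2.3.3, scipy 1.17.1 and matplotlib 3.10.9 were used.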

Additional observations from a re-analysis of the deposited data

How the results depend on the processing

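Of 58 alternatives to the counts, shares and medians, 47 stayed within 1.5 times the count or within the interval or spread used (exact 95% binomial interval for shares, 1 SD over members for medians). With so few members these limits are wide, so the tally is a weak check. Gli3 members meeting another list counted as unchanged at 33.3% (centres within 1000 bp) against 16.7%. So did 6 Olig2 peaks against 9 in the shortened Dbx1 window. Lengthening the windows by 50 kb on each side gave the Dbx2 window 2 Nkx2.2 peaks in place of 0 and 4 Olig2 peaks in place of 2. With centres within 100 bp as the rule for overlap, 0% of Gli3 members met another list in place of 16.7%. In the Dbx2 window, 2 of 3 ventral members in place of 1 were above the list's median by block 2 alone and by centre over flank. A pseudocount of 0.1 raised the median centre over flank from 14.6 to 98.3 (Nkx2.2), 8.13 to 19.2 (Nkx6.1) and 6.97 to 20.9 (Olig2) in block 1, and from 4.93 to 13.1, 6.05 to 18.4 and 6.99 to 34.3 in block 2, since flanks are near 0. For single peaks, which have no error of their own, 19 of 21 ventral members kept their side of the list's median with the mean within 100 bp, 20 within 500 bp, 15 by block 2 alone and 16 by centre over flank. The largest moves were 21.3, 8.52, 33.8 and 29.0 percentage points of the list. No paired analysis was possible because there is 1 list per factor and the blocks name no library. For the same reason no replicate could be left out.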
